A study of Mus musculus with 16 samples.

Results

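The fibroblast growth factor (FGF) ligand genes Fgf1, Fgf2, Fgf5, Fgf7, Fgf9, Fgf10, Fgf13, Fgf16 and Fgf18 were followed in the embryonic bladder and urethra. They were taken by symbol, and these 9 of 55228 gene symbols in the count table were all measured and all passed the filter on low counts, which left 18254 genes. RNA was sequenced from the mesenchyme, the connective and muscle-forming tissue around the epithelial lining, of the pelvic urethra and the bladder of wild-type, untreated CD-1 mouse embryos at embryonic day 16.5. CD-1 is an outbred stock. The 4 groups were male urethra, female urethra, male bladder and female bladder, with 4 libraries each. Every library held the pooled tissue of the embryos of 1 sex of 1 litter, freed of epithelium with trypsin and forceps, so urethra and bladder libraries of the same litter and sex came from the same embryos. The design sets urethra against bladder and, within each tissue, males against females.

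FGFs are secreted proteins that bind receptor tyrosine kinases of the FGFR family together with heparan sulfate on the cell surface. Binding switches on the RAS and ERK kinase cascade, and target cells answer with ETS transcription factors and with Sprouty, Spred and DUSP proteins that damp the same cascade. In organs built of epithelium and mesenchyme, ligands made in the mesenchyme such as FGF7 and FGF10 act on the epithelial splice form of FGFR2, while FGF9 made in linings acts on mesenchymal receptors. Fgf13 carries the family name but encodes an intracellular protein that binds voltage-gated sodium channels and microtubules, and is classed apart from the secreted ligands.

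Library totals ran from 24447435 to 29698009 counts in the urethra and from 18577097 to 22293812 in the bladder, so depth went with tissue. Levels are given as CPM, the counts of a gene scaled to a common library size after TMM normalization, which takes most genes as equal between libraries. Of 8 mesenchyme markers none was at 0, and their summed level was 9679 to 11976 CPM in urethra and 15498 to 19642 CPM in bladder libraries. Single markers went both ways, as 4 of the 8 were higher in the urethra and 4 lower by the test given below. Other cell types were present and differed between the tissues. The summed level of 12 epithelium markers was 626 to 2182 CPM in the urethra and 1909 to 4812 CPM in the bladder, lowest in female urethra of litters 3 and 4 (984 and 626 CPM) and, within the bladder, in female bladder of litter 3 (1909 CPM). The 6 mesothelium markers summed to 110 to 147 CPM in the urethra and 470 to 935 CPM in the bladder. The 8 neuron markers summed to 1296 to 2132 CPM in the urethra and 37.1 to 351 CPM in the bladder, and the 8 smooth muscle markers to 1603 to 2122 CPM in the urethra and 14212 to 18120 CPM in the bladder. In such bulk tissue, fewer cells of a type and less RNA per cell cannot be told apart.

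Of the 9 genes, 3 were higher in the urethra, 3 were lower and 3 did not pass the test (edgeR quasi-likelihood test, mean of both sexes, adjusted p under 0.05 after Benjamini-Hochberg adjustment over all genes). The 3 higher were Fgf13, Fgf10 and Fgf18, and the 3 lower were Fgf5, Fgf9 and Fgf7. Fgf5 is counted here as a description, since it passed the low-count filter only through the bladder, where it was high. Among all genes 75% passed in either direction, 36.5% as higher and 38.5% as lower, so this share of the FGF genes lay near that of any genes. The median log2 fold change was 0.11 over the 9 genes and −0.03 over all tested genes. In 2 genes, Fgf13 and Fgf5, the urethra and bladder libraries did not overlap, against 42.3% of all genes.

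Within males, 3 of the 9 genes were called as higher in the urethra (Fgf13, Fgf10 and Fgf18) and 2 as lower (Fgf5 and Fgf9), where 64% of all genes were called, 31.4% as higher and 32.6% as lower. Within females, Fgf13 and Fgf10 were called as higher and Fgf5 and Fgf7 as lower, 4 of 9 genes where 65.7% of all genes were called (32.6% as higher, 33.1% as lower). That count was 3 to 6 over the alternatives, with 6 when only the female libraries were fitted, where Fgf9 and Fgf2 passed too (adjusted p = 0.00329 and 0.0454, edgeR). In that fit 5511 of 17337 tested genes were called as higher and 5360 as lower. Male urethra and male bladder did not overlap in 3 genes (Fgf5, Fgf10 and Fgf13), against 60.6% of all genes. The female tissues did not overlap in 4 (Fgf5, Fgf7, Fgf9 and Fgf13), against 55.8%. In each sex Fgf5 is again counted as a description only, since it passed the low-count filter only through the bladder. Even with Fgf5 counted, the FGF genes were called, and parted the tissues, in no larger share than other genes.

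**Figure D1:**
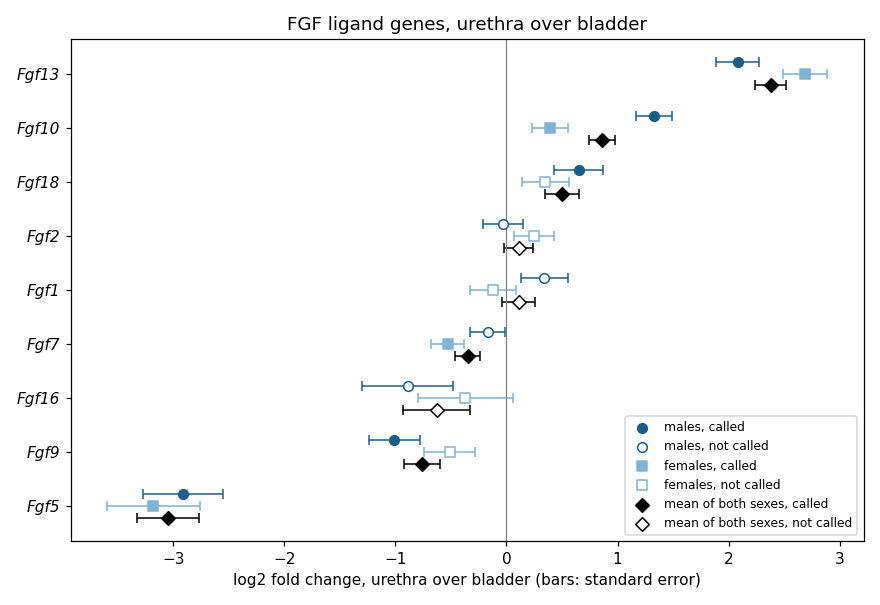
Log2 fold change of each FGF gene, urethra over bladder, with its standard error, in males (circles), in females (squares) and as the mean of both sexes (diamonds), and open symbols where the test was not passed. As means of both sexes Fgf13 stands at 2.38 and Fgf5 at −3.05, with the other genes between −0.76 and 0.86.

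The sequence before the transcription start is shown for the 6 genes called between the tissues over both sexes, Fgf5 among them as a description only. They are shown because they moved in opposite directions. Each window holds the 250 bases upstream of a RefSeq start on GRCm38.p6, read 5′ to 3′ on the strand of the gene, and capitals mark matches, on either strand, to the 6 motifs searched. These were the TATA box (spelled TATAAA), the CCAAT box, the GC box (GGGCGG), a half-site of nuclear receptors (AGGTCA), a half-site of the androgen receptor (AGAACA) and the core of ETS factor sites (CCGGAA). None of these motifs holds another. By symbol, 7 of the 9 genes matched the RefSeq windows. No printed window overlaps an annotated exon. Those of Fgf9, Fgf10 and Fgf13 lie inside the span counted for the gene, in intronic sequence, and the other 3 end where that span begins. The windows of the genes that were higher in the urethra are Fgf13 at chrX:59134437-59134686 (minus strand), Fgf10 at chr13:118714449-118714698 (plus strand) and Fgf18 at chr11:33147401-33147650 (minus strand).
Fgf13: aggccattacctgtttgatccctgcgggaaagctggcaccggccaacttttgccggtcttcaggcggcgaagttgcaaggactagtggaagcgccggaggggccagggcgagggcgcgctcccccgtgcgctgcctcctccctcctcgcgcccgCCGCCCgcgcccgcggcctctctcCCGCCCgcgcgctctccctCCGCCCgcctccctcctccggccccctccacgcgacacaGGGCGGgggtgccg
Fgf10: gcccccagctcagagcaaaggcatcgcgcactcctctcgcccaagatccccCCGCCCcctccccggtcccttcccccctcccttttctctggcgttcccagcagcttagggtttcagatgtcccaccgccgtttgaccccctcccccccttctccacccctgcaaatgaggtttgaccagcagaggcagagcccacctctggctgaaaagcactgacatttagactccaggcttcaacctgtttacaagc
Fgf18: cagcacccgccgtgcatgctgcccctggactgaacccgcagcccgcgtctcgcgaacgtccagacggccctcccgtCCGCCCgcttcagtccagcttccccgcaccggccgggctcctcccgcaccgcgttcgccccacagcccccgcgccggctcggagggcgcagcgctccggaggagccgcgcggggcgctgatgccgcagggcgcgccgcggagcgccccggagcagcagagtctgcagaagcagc
Those of the genes that were lower are Fgf5 at chr5:98253934-98254183, Fgf9 at chr14:58072436-58072685 and Fgf7 at chr2:126034408-126034657, all on the plus strand.
Fgf5: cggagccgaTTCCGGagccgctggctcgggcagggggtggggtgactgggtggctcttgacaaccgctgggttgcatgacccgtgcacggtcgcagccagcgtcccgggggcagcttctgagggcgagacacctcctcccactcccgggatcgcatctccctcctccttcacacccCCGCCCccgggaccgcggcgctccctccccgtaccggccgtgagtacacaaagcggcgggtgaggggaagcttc
Fgf9: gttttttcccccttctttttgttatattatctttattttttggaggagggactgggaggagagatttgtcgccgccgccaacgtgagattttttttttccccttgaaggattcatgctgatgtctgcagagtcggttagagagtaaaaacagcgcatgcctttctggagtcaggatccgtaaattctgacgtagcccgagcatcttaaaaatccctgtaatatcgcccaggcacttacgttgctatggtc
Fgf7: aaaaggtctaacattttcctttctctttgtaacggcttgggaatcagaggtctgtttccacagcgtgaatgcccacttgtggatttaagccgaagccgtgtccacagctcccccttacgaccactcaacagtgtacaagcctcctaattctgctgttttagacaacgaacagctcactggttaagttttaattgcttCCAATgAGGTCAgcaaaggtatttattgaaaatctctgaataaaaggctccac

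Base composition differed widely among these windows. G and C made up 74.4% of the Fgf13, 61.2% of the Fgf10 and 77.2% of the Fgf18 window, and 70.8%, 44.8% and 43.6% of the Fgf5, Fgf9 and Fgf7 windows, against a median of 52.4% over 32851 mouse windows of the same kind. The GC box was found 4 times before Fgf13 and once each before Fgf10, Fgf18 and Fgf5, and 32.7% of all windows hold it. The ETS core, in 12% of all windows, was found before Fgf5. The nuclear receptor half-site (14% of all windows) and the CCAAT box (33.8%) were each found once before Fgf7. The TATA box and the androgen receptor half-site, in 12.4% and 16.1% of all windows, were not found in these 6 windows. RefSeq lists 4 starts for Fgf13, and counts per gene do not tell which of them was used. The window before another start, at chrX:59585573-59585822 outside the counted span, is also free of exons but has 45.6% G and C, no GC box, a CCAAT box and 2 androgen receptor half-sites.

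Fgf10 and Fgf7 encode the mesenchymal ligands of the epithelial FGFR2 form, and they went in opposite directions. Fgf10, which drives budding in lung, limb and gland, stood at 32.5, 30.3, 33.4 and 26.2 CPM in male urethra and 17.6, 15.2, 18.2 and 21.8 CPM in female urethra, in the order of litters 1 to 4, as are all such values. Its bladder levels were 10.3, 15.3, 8.7 and 14.3 CPM in males and 17.3, 13.4, 12.7 and 12.3 CPM in females. Male urethra thus lay above every other library, while female urethra overlapped the bladder groups. The tissue difference was 0.86 ± 0.12 on the log2 scale (fitted value and its standard error, adjusted p = 3.90e-06, edgeR), and the urethra was higher in 8 of 8 pairs of the same litter and sex. In males it was 1.33 ± 0.16 (adjusted p = 2.59e-06) and in females 0.39 ± 0.16 (adjusted p = 0.0465). The female call lay at the threshold and did not hold with the litter as a replicate block (adjusted p = 0.0659). Nor did it hold with litter and sex as the block (adjusted p = 0.0895). It was lost when any 1 of 9 libraries was left out (replicates 1, 3 and 4 of female urethra, 2, 3 and 4 of female bladder, and 1, 2 and 3 of male urethra, with adjusted p of 0.0521 to 0.147). Without the 3 female libraries lowest in epithelium genes, a choice made after seeing the data, the female value was 0.20 (adjusted p = 0.436), and with the mean log2 level of the epithelium markers as a covariate, also chosen after seeing the data, it was 0.22 (adjusted p = 0.501). That covariate went largely with the tissue, at 5.321 to 7.216 in urethra and 6.998 to 8.344 in bladder libraries. Over all genes, calls over both sexes went from 6664 higher and 7019 lower to 4840 and 4408 under it. Where a call between the tissues is lost or a sign turns, it therefore cannot part the epithelium from the tissue. Fgf10 lies on chromosome 13 from 118669791 to 118792115 (GRCm38).

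Fgf7, first known as keratinocyte growth factor, stood at 7.62, 7.51, 7.48 and 6.91 CPM in male urethra and 7.08, 5.45, 7.87 and 8.09 CPM in female urethra. In the bladder it had 10.2, 7.35, 6.71 and 8.92 CPM in males and 8.61, 9.43, 10.1 and 13.1 CPM in females. In females the tissues did not overlap, and in males they did. The difference was −0.35 ± 0.11 over both sexes (adjusted p = 0.00855, edgeR), and scaling by library totals, without TMM, ended the call (−0.21, adjusted p = 0.0867). That scaling moves the median of all genes to 0.11, where it is −0.03 with TMM, so differences of this size depend on it. In females the value was −0.53 ± 0.15 (adjusted p = 0.00638), and in males −0.17 ± 0.16 (adjusted p = 0.357). The difference between these effects was not called (interaction 0.36 ± 0.22, adjusted p = 0.742). Fgf7 lies on chromosome 2 from 126034658 to 126091185.

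Fgf9 and Fgf16 are close relatives, and in mouse lung Fgf9 is known from epithelium and mesothelium. Fgf9 was lower in the urethra, at 8.09, 7.2, 9.06 and 6.49 CPM in males and 11.4, 8.9, 11.6 and 10.3 CPM in females. Male bladder had 12.5, 22.2, 8.06 and 19.5 CPM and female bladder 16.9, 15.2, 15.1 and 13.3 CPM. Only male bladder of litter 3, at 8.06 CPM, reached into the urethral range. The difference was −0.76 ± 0.16 (adjusted p = 4.32e-04, edgeR), lower in the urethra in 7 of 8 pairs. It was −1.01 ± 0.23 in males (adjusted p = 0.00109), and −0.51 ± 0.23 in females, where it did not pass (adjusted p = 0.0557) although the 4 urethra and 4 bladder libraries did not overlap. The female difference passed with only the female libraries in the fit (−0.5, adjusted p = 0.00329), and without male bladder replicate 2 (0.0314) or 3 (0.0105). The epithelium and mesothelium markers, whose sums are given above, were also lower in the urethra, 9 of 12 and 5 of 6 of them by the test. With the epithelium level as a covariate the Fgf9 value was −0.77 with an adjusted p of 0.0548, where the other alternatives gave an adjusted p of at most 0.00575. The part of the mesothelium was not tested. Fgf9 lies on chromosome 14 from 58070547 to 58112720.

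Fgf16, which has a role in heart growth in mice, was near the limit of detection. It had 9 to 19 counts per urethra library and 7 to 25 per bladder library. The 8 urethra libraries averaged 0.449 ± 0.147 CPM and the 8 bladder libraries 0.7 ± 0.375 CPM (mean ± SD), and the tissues overlapped. The difference of −0.63 ± 0.30 did not pass (adjusted p = 0.0662, edgeR). Male bladder held both the highest and the lowest bladder values, with 1.22 and 1.29 CPM in litters 2 and 4 and 0.401 and 0.324 CPM in litters 1 and 3. The test was passed without male bladder replicate 1 (adjusted p = 0.0353), male bladder replicate 3 (0.0223) or female urethra replicate 2 (0.0272). Fgf16 lies on the X chromosome from 105764279 to 105774939.

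Fgf18, a ligand of the FGF8 subfamily known for its work in skeletal growth and lung, was higher in the urethra. Male urethra had 6.02, 9.68, 5.58 and 6.32 CPM and female urethra 6.04, 8.22, 7.1 and 7.35 CPM, against 3.36, 6.03, 3.15 and 5.05 CPM in male bladder and 4.87, 5.63, 4.86 and 7.17 CPM in female bladder. The ranges of the tissues overlapped, yet the urethra was higher within each of the 8 pairs of litter and sex. The difference was 0.50 ± 0.15 (adjusted p = 0.00696, edgeR). In males it was 0.65 ± 0.22 (adjusted p = 0.0147, and 0.071 without male urethra replicate 2), and in females 0.35 ± 0.21 (adjusted p = 0.161). With the litter as a replicate block the female value of 0.35 passed (adjusted p = 0.0436), as did 0.36 with litter and sex as the block (0.0242). With the epithelium level as a covariate, which went largely with the tissue, the value over both sexes was 0.35 and was not called (adjusted p = 0.323). Fgf18 lies on chromosome 11 from 33117430 to 33147400.

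Fgf5, best known as the signal that ends hair growth, was the member with the lowest level in the urethra relative to the bladder. It had 0.677, 0.454, 0.562 and 0.276 CPM in male urethra and 0.286, 0.281, 0.258 and 0.101 CPM in female urethra. Male bladder had 2.96, 6.86, 2.22 and 2.9 CPM and female bladder 2.69, 2.1, 2.03 and 1.75 CPM. Every bladder library was thus above every urethra library. In counts this meant 3 to 19 per urethra library and 33 to 141 per bladder library. Fgf5 passed the low-count filter only through the bladder, with 3 urethra and 8 bladder libraries over the cutoff. A gene this low in the urethra could enter the test only if high in the bladder, so its fitted difference is given as a description, with no p. It was −3.05 ± 0.28 over both sexes, −2.91 ± 0.36 in males and −3.18 ± 0.42 in females, and −3.14 to −2.6 over 24 alternatives. Male bladder of litter 2, at 6.86 CPM, stood apart from the other 3 of its group. Fgf5 lies on chromosome 5 from 98254184 to 98277030.

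Fgf2 and Fgf1, broadly made ligands that leave cells without a signal peptide, did not pass the test between the tissues. Fgf2 averaged 53.8 ± 8.12 CPM over the 8 urethra libraries and 49.6 ± 11.4 CPM over the 8 bladder libraries (mean ± SD), a difference of 0.11 ± 0.13 (adjusted p = 0.433, edgeR) with an approximate 95% interval of −0.13 to 0.36. Its level in male urethra was narrow (49.3, 46.3, 49.6 and 46.8 CPM), and in male bladder wide (37.7, 64.6, 31.7 and 62.2 CPM). In female urethra Fgf2 had 49.8, 56.8, 65.4 and 66.4 CPM and in female bladder 49.6, 49.2, 45.6 and 56 CPM. Fgf1 had 10.2, 9.33, 9.13 and 11 CPM in male urethra and 8.83, 9.26, 6.74 and 5.7 CPM in female urethra, against 7.33, 8.95, 5.74 and 9.4 CPM in male bladder and 8.73, 7.56, 5.32 and 11.6 CPM in female bladder. The tissues overlapped in both genes. For Fgf1 the tissue means were 8.78 ± 1.75 CPM for urethra and 8.07 ± 2.04 CPM for bladder, a difference of 0.11 ± 0.15 (adjusted p = 0.51) with an interval of −0.18 to 0.4. With the epithelium level as a covariate that value was 0.59 and was not called (adjusted p = 0.0502). In males the Fgf1 value was 0.34 ± 0.21 and in females −0.12 ± 0.21, neither called. With the same covariate the male value of Fgf1 was 0.81 and was called (adjusted p = 0.0203). Fgf2 lies on chromosome 3 from 37348346 to 37410108 and Fgf1 on chromosome 18 from 38838673 to 38929472.

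Fgf13, the intracellular sodium channel partner, was the member with the largest rise. Male urethra had 47.7, 54.4, 56.5 and 58.1 CPM and female urethra 63.1, 80.3, 66.7 and 71.1 CPM, against 7.43, 14.8, 18.7 and 10.3 CPM in male bladder and 10.6, 12.6, 10.6 and 9.77 CPM in female bladder. The lowest urethra library was well above the highest bladder library. The difference was 2.38 ± 0.14 (adjusted p = 2.56e-10, edgeR), with 2.08 ± 0.19 in males and 2.69 ± 0.20 in females. The summed level of the neuron markers, all 8 of which were higher in the urethra, was higher there too. In male bladder of litters 1 to 4 that sum was 37.1, 152, 351 and 51 CPM, in the same order from low to high as Fgf13 itself. In female urethra the sum was 1457, 2132, 1560 and 1975 CPM, also in the order of Fgf13. In male urethra it was 1296, 1590, 1631 and 1462 CPM, while Fgf13 was highest in litter 4, so the orders differed. In female bladder, where Fgf13 spanned 9.77 to 12.6 CPM and was lowest in litter 4, the sum was lowest in litter 1 (70.5, 92.3, 74 and 71.9 CPM). The part of neurons in the Fgf13 result was not tested. Fgf13 lies on the X chromosome from 59062145 to 59568071.

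**Figure D2:**
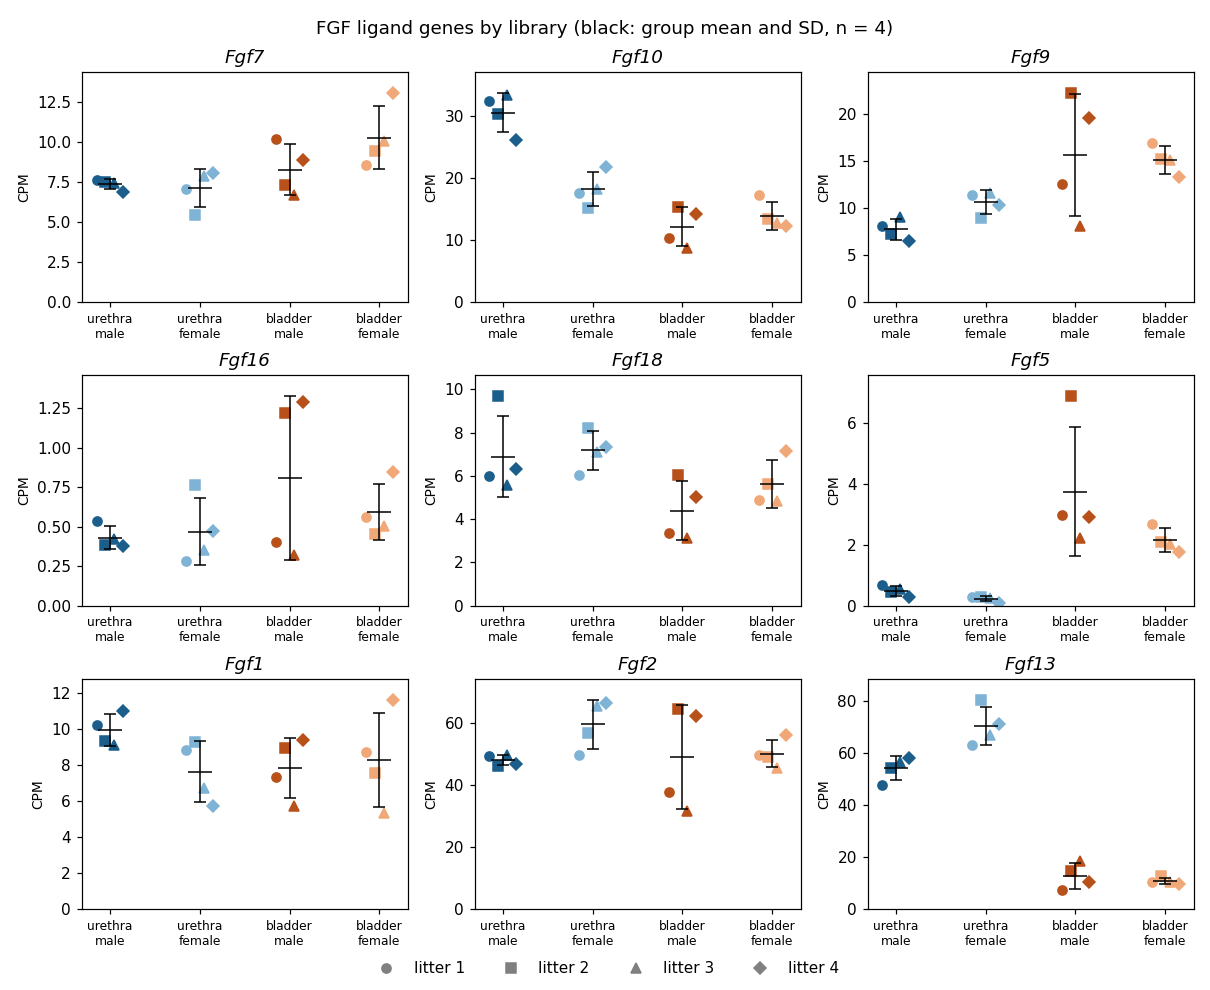
Level of each FGF gene in CPM in every library, by group, with litters as symbols and the group mean and SD in black (n = 4). Fgf13 and Fgf5 part the tissues completely, Fgf10 is highest in the 4 male urethra libraries (26.2 to 33.4 CPM), and the male bladder libraries of litters 2 and 4 stand above those of litters 1 and 3 in Fgf9, Fgf16, Fgf18, Fgf10, Fgf1 and Fgf2.

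Between the sexes, 1 of the 9 genes passed the test in the urethra and none in the bladder. Fgf10 was higher in male than in female urethra, by 0.75 ± 0.16 on the log2 scale (adjusted p = 0.00767, edgeR, higher in males in 4 of 4 litters), where the male mean was 30.6 ± 3.18 CPM and the female mean 18.2 ± 2.74 CPM (± SD, 4 libraries each). Among all genes 6.39% passed in the urethra, 3.97% as higher in males and 2.42% as lower. The Fgf10 call held in 24 of 24 alternatives (0.67 to 0.9, adjusted p of at most 0.0298). The epithelium markers summed to 1616 to 2182 CPM in male urethra and 626 to 1792 CPM in female urethra, and with that level as a covariate the Fgf10 value was 0.84 (adjusted p = 0.0226). In the bladder the male mean was 12.2 ± 3.17 CPM and the female mean 13.9 ± 2.3 CPM (−0.19 ± 0.17, adjusted p = 0.72).

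Whether the sex difference of Fgf10 itself differed between the tissues was tested as an interaction. Its value was 0.94 ± 0.23 and it was not called (adjusted p = 0.0899, edgeR), and 0 of the 9 genes were called there, against 0.668% of all genes (0.537% with a larger male excess in the urethra). At an unadjusted p under 0.05 there were 2 of the 9 genes, Fgf10 and Fgf13, and 8.38% of all genes. DESeq2 called the Fgf10 interaction (adjusted p = 0.00834), as did edgeR without male bladder replicate 2 (0.0403). Over 24 alternatives the adjusted p ran from 0.00834 to 0.174.

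The other members did not pass the test between the sexes. In the urethra, the Fgf2 mean was 48 ± 1.66 CPM for males and 59.6 ± 7.81 CPM for females (−0.31 ± 0.18, adjusted p = 0.356, edgeR), and the Fgf13 mean was 54.2 ± 4.59 CPM for males and 70.3 ± 7.43 CPM for females (−0.38 ± 0.18, adjusted p = 0.263). In both genes, as in Fgf10, the male and female libraries did not overlap, which held for 3 of 9 FGF genes and 13.4% of all genes. With only the male and female urethra libraries in the fit, Fgf13 was called as lower in males (−0.36, adjusted p = 0.0267). Fgf5 was higher in males than in females of the same litter in 4 of 4 litters in both tissues, by 1.07 ± 0.50 in the urethra and 0.80 ± 0.31 in the bladder, without passing (adjusted p = 0.251 and 0.281). The urethral value rests on 3 to 19 counts per library. The bladder value ran from 0.33 to 0.98 over the alternatives, and male bladder of litter 2 stood apart at 6.86 CPM. In the bladder 0 of 9 genes passed in edgeR, where 0.581% of all genes did (0.247% as higher in males, 0.334% as lower), and 0 in DESeq2. DESeq2 called 227 of 15545 genes as higher in males there and 253 as lower. The male and female bladder libraries overlapped in each of the 9, and did not in 6.62% of all genes. At an unadjusted p under 0.05 Fgf5 alone of the 9 passed there, as did 12.4% of all genes.

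Levels can be set against each other between genes only per length, and here CPM were divided by the kilobases of exon that the count table gives. In the urethra Fgf13 came first, at 15.5 ± 2.57 CPM per kilobase (SD, n = 8), and its lowest library lay above the highest of Fgf2 (7.93 ± 1.2). Fgf2, Fgf18 (5.93 ± 1.16) and Fgf10 (5.3 ± 1.56) overlapped as neighbours, and then, below the lowest Fgf10 library, so did Fgf7 (2.23 ± 0.253), Fgf9 (1.97 ± 0.405) and Fgf1 (1.61 ± 0.32). Fgf16 (0.273 ± 0.0893) and Fgf5 (0.145 ± 0.075) were last, clear of Fgf1, and overlapped each other. In the bladder Fgf2 came first at 7.31 ± 1.67 CPM per kilobase, followed by Fgf18 (4.22 ± 1.12), Fgf9 (3.3 ± 0.937), Fgf13 (2.95 ± 0.867), Fgf7 (2.87 ± 0.606), Fgf10 (2.83 ± 0.591), Fgf1 (1.48 ± 0.373), Fgf5 (1.17 ± 0.657) and Fgf16 (0.426 ± 0.228). There each neighbour overlapped the next. The order thus had Fgf13 at rank 1 in the urethra and rank 4 in the bladder, and Fgf9 at rank 6 in the urethra and rank 3 in the bladder. By sex, Fgf9 was at rank 7 in male and 5 in female urethra and at rank 3 in both bladder groups, and Fgf13 was at rank 4 in male and 6 in female bladder. Fgf10 came before Fgf18 in male urethra and after it in female urethra. Without the length, Fgf18 would stand at rank 7 in both tissues, as its exons span only 1187 bases.

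**Figure D3:**
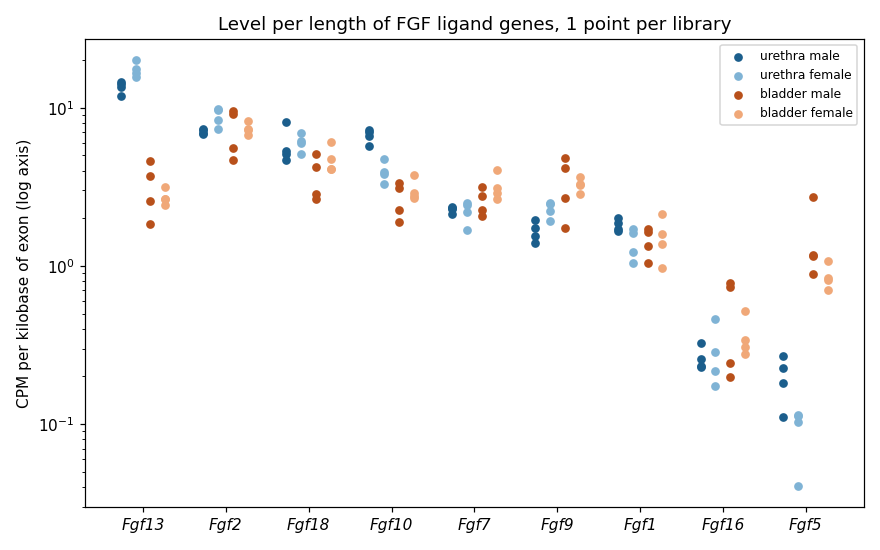
CPM per kilobase of exon on a log axis, 1 point per library, with genes in the order of their urethral mean and the groups in colour. Fgf13 leads in the urethra at 15.5 and Fgf2 in the bladder at 7.31 CPM per kilobase, and Fgf5, last in the urethra at 0.145, reaches 1.17 in the bladder.

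Much of the spread among replicates of the FGF genes lay in male bladder. The SD of log2 CPM over 4 libraries had a median of 0.51 over the 9 genes in that group, against 0.15 over all tested genes. It was 0.15 against 0.11 in male urethra, 0.21 against 0.16 in female urethra and 0.25 against 0.17 in female bladder. In male bladder, litters 2 and 4 were above the group mean in 8 and 7 of 9 genes, and litters 1 and 3 in 1 and 1. The same litters did not stand apart in this way in female bladder, where 3 and 5 of 9 genes were above the mean in litters 2 and 4, and 4 and 1 in litters 1 and 3. These counts were not set against the share of all tested genes above the mean. They therefore do not tell a pattern of the FGF genes from a shift of the whole library. The mesothelium markers summed to 562, 935, 470 and 841 CPM in male bladder of litters 1 to 4, high in the same 2 libraries, and to 678, 737, 543 and 584 CPM in female bladder. The smooth muscle markers were lower in those 2 male libraries, at 14642 and 15067 CPM in litters 2 and 4 and 16509 and 16712 CPM in litters 1 and 3. In the same order, mesenchyme markers were lower (15747 and 15498, then 16803 and 17612 CPM), as were endothelium markers (222 and 243, then 248 and 309 CPM). Skeletal muscle markers were higher (40.1 and 40.8, then 36 and 36.7 CPM). The epithelium, neuron and glia sums did not part these libraries in this way. The part of any cell type in these values was not tested. Among the FGF genes the exceptions were Fgf13, highest in litter 3, Fgf7, highest in litter 1, and Fgf5, high in litter 2 only.

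**Figure D4:**
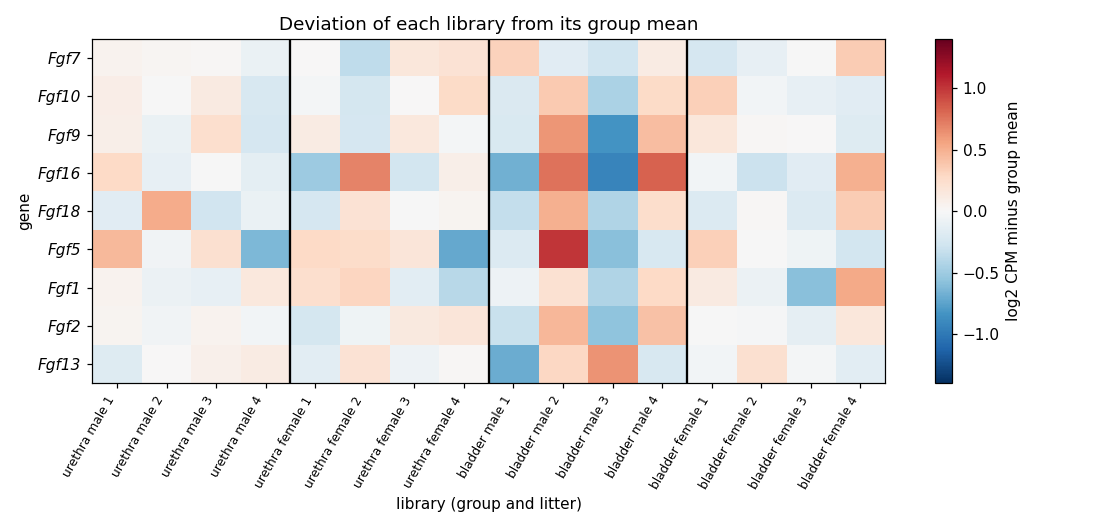
Log2 CPM of each FGF gene in each library minus the mean of its group, with rows for genes and columns for libraries. The male bladder columns of litters 2 and 4 are above their mean in 8 and 7 of 9 genes and those of litters 1 and 3 in 1 each. These counts were not set against all genes. The SD of the plotted values reaches 0.92 in male bladder for Fgf16 but at most 0.46 in male urethra.

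For each FGF gene the most similar patterns among all tested genes were taken as the 2 smallest root mean square differences of log2 CPM over the 16 libraries, each gene centred on its own mean. The closest match of Fgf13 was Sytl4, a synaptotagmin-like gene, and then Gfra1, the co-receptor of the growth factor GDNF, both at 0.14. Fgf10 was nearest to Pdgfd, a ligand of the PDGF family (0.20), and Aldh1a2, an enzyme of retinoic acid synthesis (0.23). Fgf18 was nearest to the glutamate transporter gene Slc1a3 (0.16) and the prostaglandin F receptor gene Ptgfr (0.19). Of the genes that were lower in the urethra, Fgf7 was nearest to Sugct (0.14) and Pheta2 (0.15), and Fgf9 to Aknad1 (0.25) and Slc1a6 (0.26). The nearest genes to Fgf5, Gpm6a (0.39) and Mlkl (0.42), lay farther off. Fgf1 was nearest to Skap2 (0.18) and Dhrs3 (0.21), and Fgf16 to Anp32b-ps1 (0.34) and Tmem273 (0.35). Foxo6 was among the 2 genes nearest to Fgf2 (0.17). Among the FGF genes themselves the closest pair was Fgf2 and Fgf18 (0.31).

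The other genes of the family were mostly low. Of 13 further Fgf genes, 7 passed the filter on low counts, and all 7 were higher in the urethra by the test, but 5 of them (Fgf3, Fgf14, Fgf15, Fgf17 and Fgf20) passed the filter only through urethra libraries, so that count is a description only. Fgf15 had 22 to 32 counts per urethra library and 0 to 2 per bladder library, and Fgf17 had 6 to 26 per urethra and 0 to 3 per bladder library. Fgf14 had 70 to 130 counts in the urethra and 2 to 25 in the bladder, Fgf20, a relative of Fgf9, had 10 to 35 in the urethra and 4 to 7 in the bladder, and Fgf3 had 2 to 43 in the urethra and 1 to 13 in the bladder. Fgf12 and Fgf11, which passed in both tissues, encode intracellular relatives of Fgf13. The Fgf12 mean was 11.6 ± 4.34 CPM for urethra and 2.22 ± 0.515 CPM for bladder (± SD, 8 libraries each), a rise of 2.30 ± 0.14 (adjusted p = 1.55e-10, edgeR). Fgf11 rose by 0.35 ± 0.11 (adjusted p = 0.00878), but with the epithelium level as a covariate its value was −0.03. Fgf4, Fgf6, Fgf8, Fgf21, Fgf22 and Fgf23 had at most 12 counts in any library.

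In the urethra Fgf12 also differed between the sexes. The Fgf12 mean was 15.5 ± 1.44 CPM for males and 7.79 ± 1.5 CPM for females (± SD, 4 libraries each), a difference of 0.99 ± 0.17 (adjusted p = 0.00128, edgeR). Fgf3 averaged 0.149 ± 0.0613 CPM in male and 1.15 ± 0.418 CPM in female urethra. It passed the low-count filter only through the 4 female urethra libraries and 1 bladder library, so no test of this difference is given.

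Of 19 tested receptor, co-receptor and binding protein genes, 10 rose and 5 fell in the urethra (median 0.20), a share of calls near the 75% of all genes. The receptor gene Fgfr1 averaged 234 ± 25.5 CPM over urethra and 114 ± 17.2 CPM over bladder libraries (1.03 ± 0.07, adjusted p = 1.36e-09, edgeR). Fgfr2 rose by 0.59 ± 0.06 and Fgfr4 by 0.89 ± 0.15. Counts per gene do not tell the epithelial form of Fgfr2, which binds FGF7 and FGF10, from its other forms. Fgfr3 averaged 34.1 ± 13.7 CPM over urethra and 40.5 ± 8.37 CPM over bladder libraries and did not pass (−0.31 ± 0.17, adjusted p = 0.109). It passed with litter and sex as a replicate block (−0.35, adjusted p = 0.0153), and had the opposite sign with the epithelium level as a covariate (0.65, adjusted p = 1.10e-04). Gpc1, a heparan sulfate carrier of the cell surface, rose by 1.32 ± 0.08 and the adaptor gene Frs3 by 1.02 ± 0.08. The other way went Fgfbp1, a secreted FGF carrier (−1.30 ± 0.25), the syndecan gene Sdc4 (−0.70 ± 0.11) and Hspg2, which encodes perlecan (−0.61 ± 0.13). With the epithelium level as a covariate Fgfbp1 was at −0.39 (adjusted p = 0.479) and Sdc4 at −0.07 (0.408), neither called. That covariate went largely with the tissue, as given for Fgf10. In male against female urethra Fgfr2 (0.40 ± 0.09, adjusted p = 0.0124) and Fgfr3 (0.93 ± 0.24, adjusted p = 0.0286) were higher. The part of the epithelium, whose marker sums are given above, was not tested there.

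Among 17 tested genes that FGF signalling is known to induce, 12 rose and 1 fell (median 0.53, and −0.03 over all genes). Of all genes 75% were called, 36.5% as higher and 38.5% as lower. Etv4, an ETS factor gene, averaged 20.1 ± 2.74 CPM over urethra and 2.49 ± 1.07 CPM over bladder libraries (± SD, n = 8 each) and rose by 3.03 ± 0.15. The ERK phosphatase gene Dusp4 rose by 1.5 ± 0.11 and Flrt2, a membrane protein gene, by 1.43 ± 0.08, while Dusp5, another ERK phosphatase gene, fell (−1.88 ± 0.12, adjusted p = 4.50e-10, edgeR). Other signals that act through ERK induce several of these genes too. The neuron, glia, endothelium and skeletal muscle markers were also higher in the urethra, 8 of 8, 6 of 6, 6 of 6 and 7 of 8 of them by the test, and their part in these counts was not tested.

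**Figure D5:**
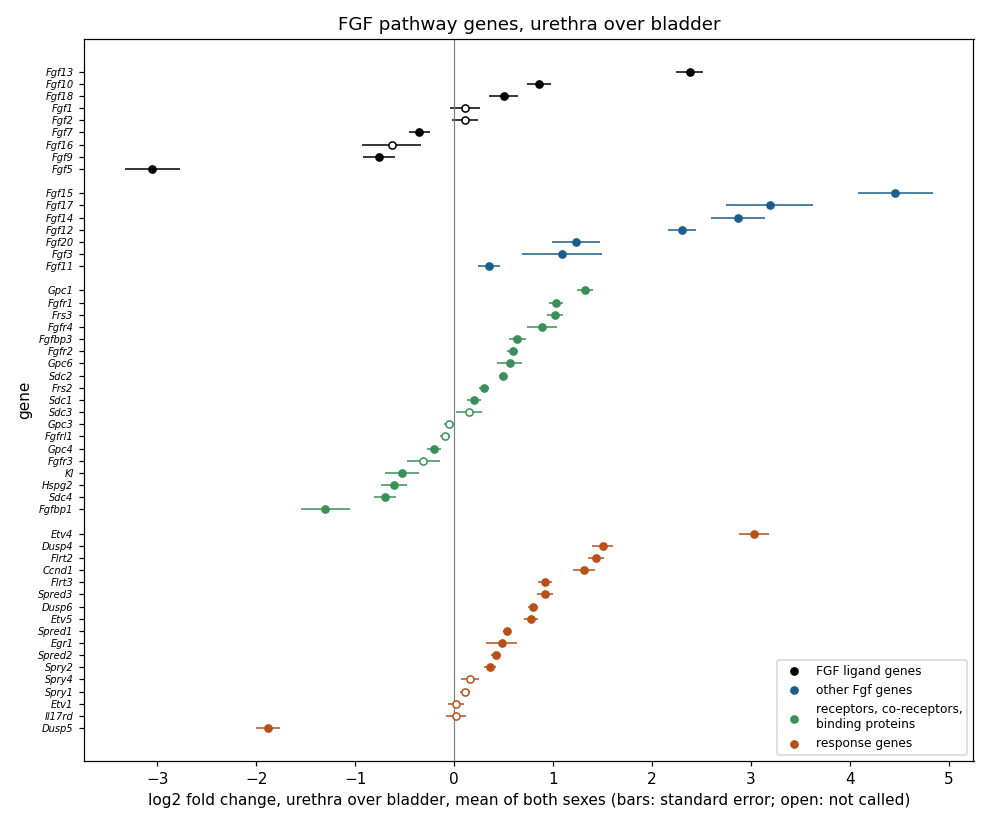
Log2 fold change, urethra over bladder as the mean of both sexes, with its standard error, for the 9 FGF genes and the tested genes of the other 3 lists, with open symbols where the test was not passed. The FGF genes spread from −3.05 to 2.38 on both sides of 0, and 12 of 17 response genes lie above 0 and passed.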

How the data were processed

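The members and gene lists were chosen with earlier results of these data known. Counts are read pairs per gene symbol as deposited. They were made by the authors with HISAT2 2.1.0 on GRCm38 per the submitters' processing notes, and with featureCounts 1.6.3 (strand setting 2) per the file headers, so antisense transcripts were counted apart. The second deposited table holds signal, counts divided by 1 size factor per library, and served only as a check of these factors. No source used here names the GENCODE release, but 99.5% of symbols that occur once in M21 have the same span there.

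Counts were fitted with edgeR 4.0.16 (limma 3.58.1, R 4.3.3) by a quasi-likelihood test in 1 fit of the 4 groups, with TMM scaling, filterByExpr (0.428 CPM in at least 4 libraries) and robust dispersions. The main fit held no block for litter, so its p-values treat libraries from the same embryos as independent. The Benjamini-Hochberg threshold was 0.05. Contrasts were urethra over bladder (both sexes, and each), male over female in each tissue, and their interaction. Standard errors were taken as |log2 fold change|/√F, an approximation, and log2 CPM use a prior count of 2. Alternatives were library totals alone, DESeq2 size factors, DESeq2 1.42.0, no filter, litter blocks, 2 groups only and each library left out, and, added after seeing the data, the epithelium level as a covariate and leaving out 3 female libraries low in epithelium genes. The fit between the tissues was tested on simulated counts in which few genes changed, evenly in both directions, without a litter effect. That run could not test the scaling or the pairing. Libraries of a group were no copies of each other (chi-squared per degree of freedom 4.55 to 34.03 over 24 pairs). The labels tie each replicate number to a litter. Deviations from group means of the same litter and sex correlated at 0.09 to 0.41 (8 pairs, 7 of them over 0.1, with a median of 0.19), while libraries of different litters had a median of −0.05. Named genes followed a rule: all 9 members, the other tested Fgf genes, the 4 receptors, the 3 highest and 3 lowest called genes of the other lists, and the 2 genes most like each member, of which 1 is not reported here.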

Additional observations from a re-analysis of the deposited data

Results flagged for a closer look

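Among 36 sets of 4 libraries (9 genes in 4 groups), 2 held a library far from the other 3, where chance alone flags about 1 in 20. Both were Fgf5. Male bladder replicate 2 had 6.86 CPM, against 2.22 to 2.96 CPM in the other 3 male bladder libraries. Female urethra replicate 4 had 0.101 CPM, against 0.258 to 0.286 CPM in the other 3, from 3 counts.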

How the results depend on the processing

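Of the 6 genes called between the tissues, where Fgf5 is a description only, Fgf10 and Fgf13 were called under all 24 alternatives. Fgf7, Fgf9 and Fgf18 were called under 23 each. Scaling by library totals moved the median of all genes from −0.026 to 0.11 and the split from 6664 higher and 7019 lower genes to 8341 and 5381. With Fgf5 counted, called FGF genes between the tissues numbered 6 to 7 with 1 library left out and 4 to 6 otherwise. In females alone they numbered 3 to 5 and 3 to 6. Calls of all genes moved too, to 4840 higher and 4408 lower of 18254 with the epithelium level as a covariate. In females they moved from 5950 and 6051 to 4426 and 3993 under it. The share over all genes was not set beside each count, so these ranges do not describe the FGF genes alone.

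With litter as a replicate block, Fgf10 lost its call in females (0.39, adjusted p = 0.0659, edgeR) and Fgf18 gained one (0.35, adjusted p = 0.0436). The block of litter and sex made the same 2 changes (Fgf10 0.39, adjusted p = 0.0895, and Fgf18 0.36, adjusted p = 0.0242, edgeR). With litter and sex as the block, Fgfr3 gained a call between the tissues (−0.35, adjusted p = 0.0153), and neither block changed another call of the 9 FGF genes, or another call between the tissues of the pathway genes named by the rule. Calls of pathway genes between the sexes under the alternatives are not reported here. Between the sexes, 2 FGF genes were called in the urethra with only the groups compared in the fit. There 737 of 17739 tested genes were called as higher in males and 475 as lower. In the interaction 1 was called by DESeq2, and 0 to 1 with a library left out. DESeq2 called 196 of 19496 genes there with a positive value and 74 with a negative one. Without male bladder replicate 2 edgeR called 107 and 22 of 18568.

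The signs of the following values turned, all of them uncalled without the alternative except that of Fgf11. With the epithelium level, which went largely with the tissue, as a covariate, between the tissues, Fgf2 was at −0.08, Fgf11 at −0.03, Fgfr3 at 0.65 and female Fgf1 at 0.37. Under the same covariate the male over female values were 0.03 for Fgf18 in the urethra and 0.06 for Fgf2 in the bladder. With library totals female Fgf1 was at 0.01 and male Fgf2 at 0.11. Male Fgf2 was also at 0.0 by DESeq2, 0.04 with no filter, 0.0 with the litter block and 0.02 with the block of litter and sex.

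Leaving out 1 library at a time, urethra over bladder ran from −0.26 to 0.11 for female Fgf1 and from −0.14 to 0.13 for male Fgf2. Male over female in the urethra ran from −0.06 to 0.11 for Fgf7, −0.27 to 0.21 for Fgf16 and −0.26 to 0.03 for Fgf18. In the bladder it ran from −0.25 to 0.12 for Fgf1, −0.19 to 0.11 for Fgf2, −0.18 to 0.24 for Fgf9 and −0.02 to 0.43 for Fgf13. The cause was not tested. Among values under alternatives, 1719 were labelled the same, 33 turned sign, 24 were weaker and 18 gained a call. The weaker ones are lost calls of single genes and, in each tissue, the order of levels taken without length. Fgf11, which turned sign and lost its call, is counted as turned only. Fgf5 in the urethra and Fgf16 rest on few counts, which limits their precision.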
